A study of Homo sapiens with 2 samples.

Results

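Genes of the Wnt pathway were followed from a drug-sensitive lung adenocarcinoma line into its gefitinib-resistant derivative. The genes were taken by symbol: the WNT ligands, the Frizzled (FZD) receptors, the SFRP and DKK antagonists, the AXIN, Dishevelled (DVL) and TCF7 families, and LEF1, LGR4, LGR5, LGR6, RNF43, ZNRF3, LRP5, LRP6 and CTNNB1. This gave 56 of the 20985 genes in the deposited table, including 2 non-coding transcripts, WNT5A-AS1 and TCF7L1-IT1, whose symbols begin like those of their host genes. One library came from parental HCC827 cells, an established line that carries an activating mutation of EGFR, and the other from HCC827 ZDR3. The resistant cells had been kept in gefitinib, an inhibitor of the EGFR tyrosine kinase, at 10 nM for 1 month, with a 3-fold increase each month up to 1 µM, and 3 colonies were then taken. The labels do not say which colony became ZDR3, whether the drug was present at harvest, or whether the sequenced cells grew in the isotope-labelling medium that the growth protocol describes. Polyadenylated RNA was sequenced. With 1 library per group there is no replicate check and no test, so every difference below is one between these 2 libraries.

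Wnt proteins are lipid-modified secreted ligands. They bind a Frizzled receptor together with the co-receptor LRP5 or LRP6, and Dishevelled then draws the AXIN scaffold to the membrane. This stops the destruction complex from marking beta-catenin, the product of CTNNB1, for degradation, and beta-catenin enters the nucleus, where it binds TCF and LEF factors on target genes. SFRP and DKK proteins block the ligands and co-receptors outside the cell. RNF43 and ZNRF3 are membrane ubiquitin ligases that remove Frizzled from the surface, and R-spondins acting through LGR receptors hold them back. AXIN2, RNF43, ZNRF3, LGR5, TCF7 and LEF1 are themselves targets in many tissues, so the pathway feeds back on itself. In the lung, Wnt signals act in branching of the airways and in renewal of alveolar cells.

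Reads assigned to genes summed to 257192599 for the parental cells and 243549875 for the resistant cells, with counts above 100000 in a gene recovered less exactly. Levels are normalised reads, not divided by gene length, and a level of 1 equals 143 reads of the parental library or 138 of the resistant one. Of the lung epithelial markers 8 of 10 reached a level of 1 in both libraries. The summed level of the 10 was 14228 in the parental library and 5625 in the resistant one. By 2-fold or more, 7 of the 8 were lower in the resistant library. Of all 13777 genes at a level of 1 in either library, 9.68% were lower by that much. NKX2-1, a lineage factor of lung epithelium, stood at 95.0 and 9.33. Of the markers of other cell types, 2 of 8 leukocyte, 1 of 8 fibroblast and 0 of 5 endothelial genes reached that level in either library, with summed levels of 157 and 321, 9.60 and 2.0, and 0.553 and 0.124. The leukocyte sums are nearly all CD68, at 155 and 320, with CD14 at 1.88 and 0.203. The fibroblast sums are mostly COL1A1, at 9.15 and 1.76. PTPRC had 0 and 32 reads, COL3A1 0 in both, VWF 42 and 7 and CDH5 3 and 2. For the genes of the series title, EGFR was at 6662 (parental) and 7182 (resistant) and JUN at 49.1 and 232.

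Most of the abundant Wnt genes differed by less than 2-fold between the libraries, and the widest ratios, those of AXIN2, SFRP4, WNT7A and RNF43, lay among genes of low level. Of the 56 genes 31 reached a level of 1 in either library or both, and these are called expressed. The log2 ratio used for calls is resistant over parental after 1 unit is added to both levels, which shrinks the ratio of low genes. By it 4 of the 31 (AXIN2, ZNRF3, SFRP4 and FZD9) had 2-fold or higher levels in the resistant library, where 10.6% of all 13777 expressed genes were. Another 4 (WNT7A, TCF7L2, FZD5 and FZD8) were 2-fold lower or more, where 9.68% of all expressed genes were. These shares of the Wnt genes, 12.9% in each direction, lie near the background. AXIN2, SFRP4, FZD9, WNT7A and FZD8 reached a level of 1 only in the library where they were higher. The median log2 ratio of the 31 genes was -0.11, and that of all expressed genes was -0.03. In bulk RNA, fewer cells of a kind and less RNA per cell cannot be told apart.

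**Figure D1:**
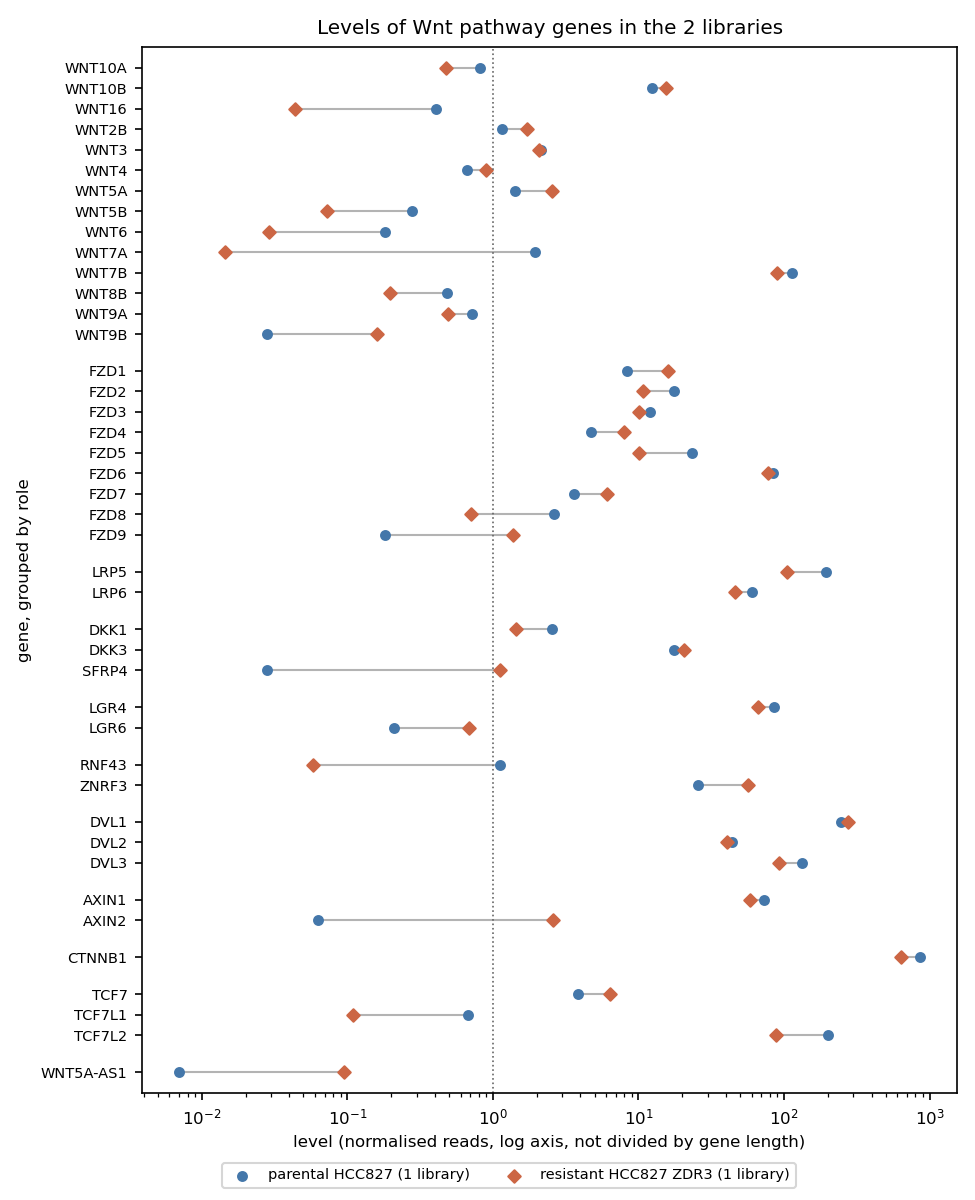
Levels of the 42 Wnt genes with more than 3 reads in at least 1 library (horizontal log axis, normalised reads, not divided by gene length), grouped by role, with a circle for the parental and a diamond for the resistant library. The dotted line marks a level of 1. Wide gaps, as for WNT7A, SFRP4, RNF43 and AXIN2, lie at low levels, and CTNNB1 and DVL1 lie at the right with narrow gaps.

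The pseudocount of 1 unit hides ratios that the read counts resolve, so plain ratios are given below with exact 95% (Clopper-Pearson) intervals, which cover counting error only. Over the 39 Wnt genes with 30 reads or more in either library, 5 had a plain ratio of 2 or above, where 14.1% of all 15297 such genes were. In the other direction 9 were 2-fold lower or more, where 13.3% of all such genes were. As shares of the Wnt genes these are 12.8% and 23.1%. This second rule was chosen after the values were seen. It adds LGR6 to the higher genes and RNF43, WNT16, TCF7L1, WNT5B and WNT8B to the lower ones.

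**Figure D2:**
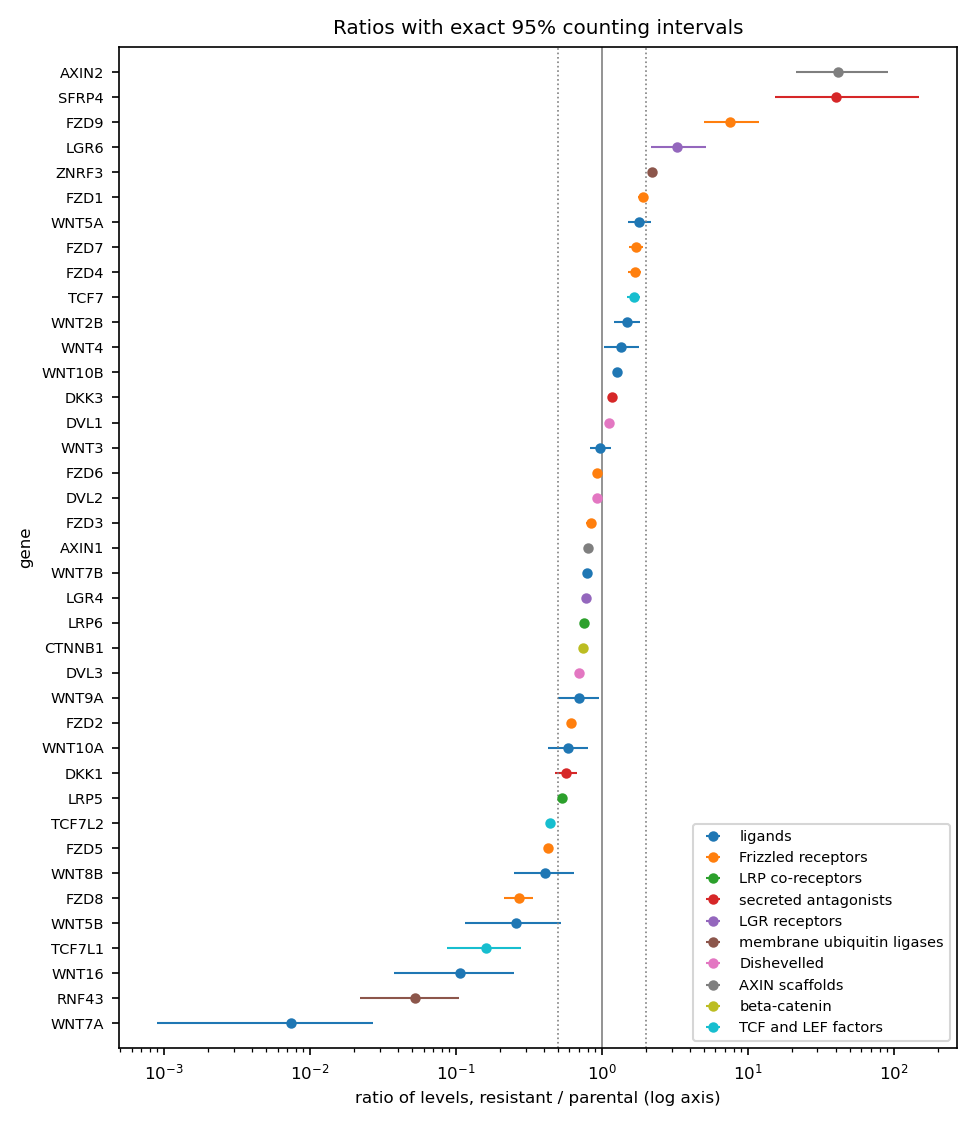
Plain ratio of levels, resistant over parental (horizontal log axis), for the 39 Wnt genes with at least 30 reads in at least 1 library, coloured by role. Bars are exact 95% counting intervals, and dotted lines mark a 2-fold difference. AXIN2, at 41.3, and SFRP4, at 40.0, lie farthest to the right and WNT7A, at 0.00742, farthest to the left.

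A set of 4 genes near silent in one of the libraries is shown with the reference sequence before their start. They are WNT7A and RNF43, low in the resistant library, and SFRP4 and FZD9, low in the parental library. The 250 bases before the RefSeq start (GRCh38.p14) are given 5′ to 3′ on the gene's strand, with CG dinucleotides, the sites of DNA methylation, in capitals. WNT7A lies on the minus strand at chr3:13880072-13880321, RNF43 (the upstream of its starts in the table) on the minus strand at chr17:58417535-58417784, SFRP4 on the minus strand at chr7:37916818-37917067, and FZD9 on the plus strand at chr7:73433528-73433777. Bases just after the start were found in GENCODE transcripts of WNT7A (1), RNF43 (3, for either start) and FZD9 (1). They were found in 0 transcripts of SFRP4, so its start rests on RefSeq alone.
WNT7A: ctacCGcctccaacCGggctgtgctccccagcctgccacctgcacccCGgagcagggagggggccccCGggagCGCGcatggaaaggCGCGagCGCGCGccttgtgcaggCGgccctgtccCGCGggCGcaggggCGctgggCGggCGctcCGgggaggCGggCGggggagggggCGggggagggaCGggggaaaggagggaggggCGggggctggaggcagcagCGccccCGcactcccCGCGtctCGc
RNF43: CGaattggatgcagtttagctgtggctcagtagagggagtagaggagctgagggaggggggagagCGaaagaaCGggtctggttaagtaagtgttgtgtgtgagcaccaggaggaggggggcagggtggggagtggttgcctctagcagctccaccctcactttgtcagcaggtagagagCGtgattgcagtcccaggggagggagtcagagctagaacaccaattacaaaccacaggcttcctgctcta
SFRP4: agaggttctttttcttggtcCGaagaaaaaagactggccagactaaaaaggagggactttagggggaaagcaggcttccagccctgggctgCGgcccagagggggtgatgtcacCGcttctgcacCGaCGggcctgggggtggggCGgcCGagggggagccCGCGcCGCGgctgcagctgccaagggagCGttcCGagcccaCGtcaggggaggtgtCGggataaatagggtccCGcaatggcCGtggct
FZD9: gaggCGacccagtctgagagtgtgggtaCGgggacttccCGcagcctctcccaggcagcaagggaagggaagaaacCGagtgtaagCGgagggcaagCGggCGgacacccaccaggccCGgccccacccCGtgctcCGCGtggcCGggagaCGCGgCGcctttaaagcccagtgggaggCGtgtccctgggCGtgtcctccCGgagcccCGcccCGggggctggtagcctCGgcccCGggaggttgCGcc
The windows hold 29 CG in WNT7A, 4 in RNF43, 17 in SFRP4 and 23 in FZD9, against a median of 11 over the 35116 promoter windows of RefSeq. These 4 windows thus run from sparse to dense. The core of the TCF and LEF binding site was searched for as CTTTGA on either strand, and this form is in none of the 4 windows. The other form, CTTTGT, was not counted, and the RNF43 window holds it. CTTTGA is in 11.2% of all windows of this length, and in 1 of the 48 windows found for 39 of the Wnt genes, that of DKK1. AXIN2 and ZNRF3 are not among the 39. The 48 windows hold a median of 20 CG, against 11 for all windows, so these shares do not compare like windows. Methylation and binding were not measured, and a match or its absence in these letters says nothing about the factor.

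Among the ligands, WNT7B made up most of the signal in both libraries. WNT7B, a ligand of lung epithelium, was at 113 in the parental library and 89.4 in the resistant one, a ratio of 0.793 (0.775 to 0.812). WNT10B was the next, at 12.3 and 15.5, a ratio of 1.26 (1.18 to 1.34). Per kilobase of exon, WNT7B held 76.1% of the reads of the 19 ligands in the parental library and 70.1% in the resistant one, and WNT10B 16.0% and 23.4%. Their order was the same in both libraries, and the difference between them far exceeded the counting intervals.

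WNT7A was the ligand with the largest difference. It had 280 reads in the parental library, a level of 1.96, and 2 reads in the resistant library, a level of 0.0145. Its parental level was 135 times the resistant one, with an interval of 37.0 to 1119, and its log2 ratio was -1.54. By length-corrected level it ranked 4 among the ligands of the parental library and 17 in the resistant one.

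Of the other expressed ligands, WNT5A, the classical ligand of beta-catenin-independent signalling, was at 1.42 and 2.57, a ratio of 1.81 (1.51 to 2.16). WNT2B was at 1.15 and 1.71, a ratio of 1.48 (1.21 to 1.82). Its exons overlap those of ST7L on the opposite strand over 21.2% of their length, and ST7L stood at 30.6 and 30.1, so reads of the pair cannot be told apart where the counting did not use strand. WNT3 was at 2.13 and 2.08, and its interval of 0.826 to 1.15 holds a ratio of 1. Thus 1 of the 6 expressed ligands passed the 2-fold line downward and 0 upward, beside 9.68% and 10.6% of all expressed genes. The median log2 ratio of the 6 was 0.14.

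A further 8 ligands had more than 3 reads but stayed under a level of 1 in both libraries. WNT16 had 58 parental and 6 resistant reads, WNT5B 40 and 10, WNT6 26 and 4, and WNT8B 69 and 27. These 4 had fewer reads in the resistant library, by factors in level of 9.31 (4.03 to 26.4), 3.85 (1.89 to 8.64), 6.26 (2.17 to 24.7) and 2.46 (1.56 to 4.0). WNT10A had 116 and 66 reads, and WNT9A 102 and 68. WNT4 had 95 and 124 reads, a ratio of 1.36 (1.03 to 1.79), and WNT9B 4 and 22, a ratio of 5.71 (1.94 to 22.8). WNT1, WNT2 and WNT3A had at most 2 reads in either library, and WNT8A and WNT11 had 0 in both.

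Among the Frizzled receptors FZD6 was the most abundant in both libraries. Of 9 expressed receptors 1 was called higher and 2 lower, beside 10.6% and 9.68% of all expressed genes. FZD6 was at 83.7 in the parental library and 77.9 in the resistant one, a ratio of 0.931 (0.907 to 0.955). Per kilobase of exon it held 56.0% and 59.5% of the reads of the 10 Frizzled genes, followed by FZD2 with 22.6% and 15.8%. FZD2 itself was at 17.5 and 10.8, a ratio of 0.614 (0.576 to 0.655).

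FZD5, a receptor that acts in intestinal epithelium, was at 23.5 in the parental library and 10.0 in the resistant one, 2.34 times lower (2.20 to 2.50). FZD8, its closest relative in the family, was at 2.62 and 0.705, 3.72 times lower (2.97 to 4.70). Their log2 ratios were -1.15 and -1.09. FZD9 went the opposite way, from 26 parental to 190 resistant reads, levels of 0.182 and 1.38 and a ratio of 7.59 (5.02 to 11.9). FZD9 is a receptor reported to carry WNT7A signals in lung cells, so the ligand was near absent in the library in which the receptor was higher.

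FZD1, FZD4 and FZD7 had ratios between 1.5 and 2. FZD1 was at 8.35 and 15.9 (1.90, interval 1.77 to 2.05), FZD7 at 3.59 and 6.12 (1.70, 1.53 to 1.91) and FZD4 at 4.76 and 7.96 (1.67, 1.52 to 1.84). FZD4 exons overlap those of PRSS23 on the opposite strand over 18.9% of their length, and PRSS23 was at 204 and 167, in the opposite direction. FZD3 was at 12.0 and 10.1, and FZD10 had 0 reads in both. In length-corrected order FZD5 ranked 3 in the parental library and 5 in the resistant one, FZD1 ranked 4 and 3, and FZD7 5 and 4. The summed length-corrected level of the family was 36.8 and 32.2.

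**Figure D3:**
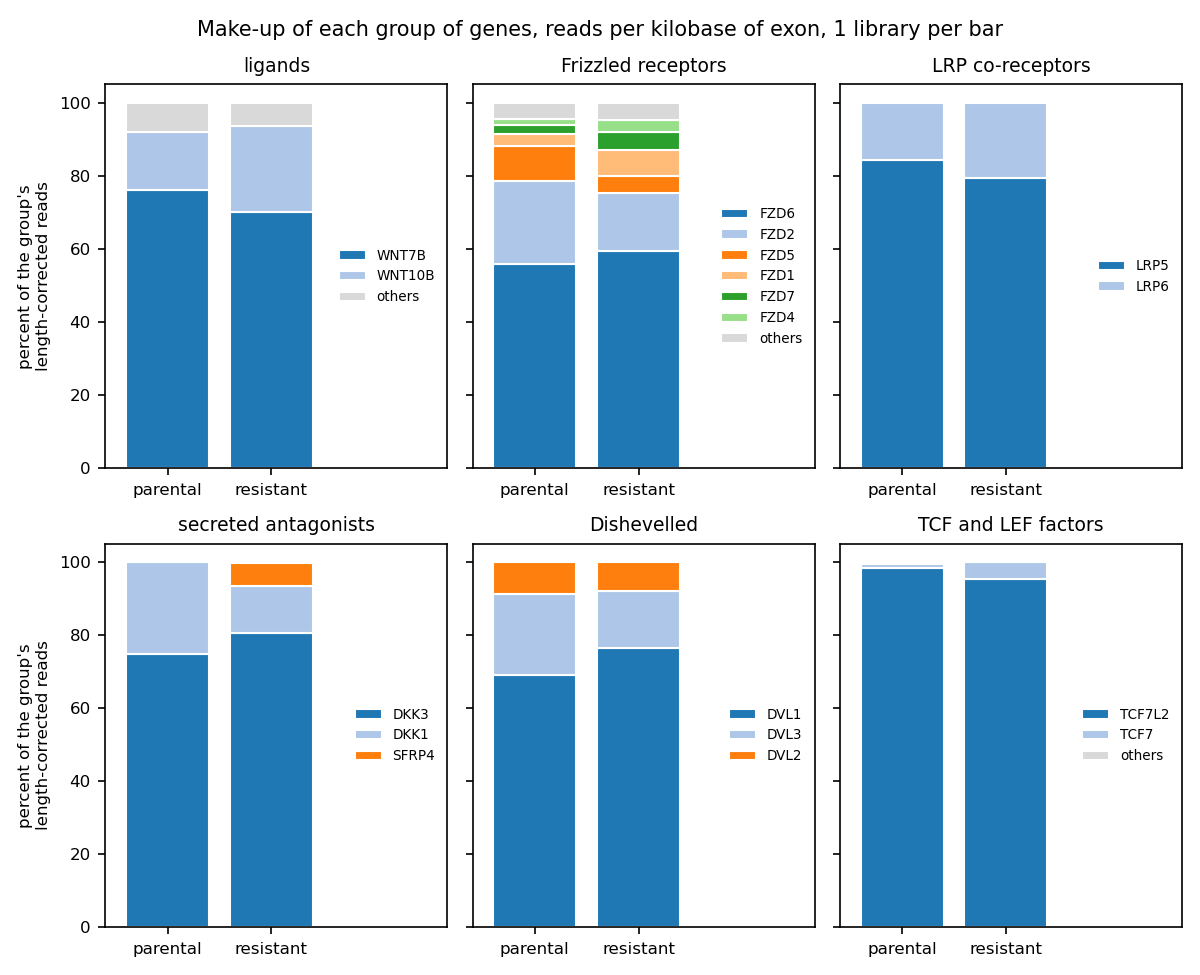
Share of each group's reads per kilobase of exon (vertical axis, percent) that each gene held in the parental (left bar) and the resistant library (right bar), with genes under 3% in both libraries drawn together as others. WNT7B, FZD6, LRP5, DKK3, DVL1 and TCF7L2 lead their groups in both libraries, and FZD5 gives way to FZD1 and FZD7 in the resistant library.

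Both LRP co-receptors had lower levels in the resistant library. LRP5 was at 195 and 104, a ratio of 0.536 (0.525 to 0.547) and a log2 ratio of -0.89, short of 2-fold. LRP6 was at 60.6 and 45.7, a ratio of 0.755 (0.731 to 0.780). LRP5L, a partial copy of LRP5 whose reads could be confused with it, was at 5.54 and 4.11.

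The secreted antagonists were led by DKK3, and SFRP4 appeared in the resistant library. SFRP4, a secreted protein with a Frizzled-like domain that binds Wnt ligands, had 4 parental and 154 resistant reads, levels of 0.0280 and 1.12. Its ratio was 40.0 with an interval of 15.3 to 149. DKK1, which binds LRP co-receptors, was at 2.54 and 1.45, a ratio of 0.569 (0.476 to 0.678). DKK3, a divergent member of the family, was at 17.5 and 20.5 (1.17, 1.11 to 1.23). SFRP5 had 0 and 3 reads, DKK4 0 and 1, and SFRP1, SFRP2 and DKK2 had 0 in both.

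LGR4 held nearly all reads of the R-spondin receptors. It was at 86.0 in the parental library and 66.5 in the resistant one, a ratio of 0.773 (0.753 to 0.795). LGR6 had 30 and 95 reads, a ratio of 3.29 (2.16 to 5.14), at levels under 1. LGR5, the stem cell marker of intestinal crypts, had 0 and 1 reads.

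The paired ubiquitin ligases went in opposite directions. ZNRF3 was at 25.8 in the parental library and 56.8 in the resistant one, a ratio of 2.20 (2.11 to 2.29) that rests on 3689 and 7812 reads. RNF43 had 159 parental and 8 resistant reads, levels of 1.11 and 0.0581, 19.1 times lower (9.48 to 45.1). Its log2 ratio of -0.998 falls just short of the 2-fold call because of the unit added to both levels. GENCODE lists further genes on the same strand that share exons with RNF43 and with AXIN2, so some of their reads could belong to those. By summed length-corrected level the pair went from 3.85 to 8.15, nearly all of it ZNRF3.

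None of the 3 Dishevelled genes was 2-fold apart, beside 10.6% of all expressed genes higher and 9.68% lower. With 3 genes this count does not set them apart. DVL1 was at 247 and 275 (1.11, 1.10 to 1.13), DVL2 at 44.1 and 40.8 (0.925, 0.892 to 0.959) and DVL3 at 133 and 92.4 (0.694, 0.679 to 0.710). Their order per length, with DVL1 first and DVL2 last, was the same in both libraries.

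The AXIN scaffolds parted. AXIN1, the constitutive scaffold, was at 73.2 and 58.4, a ratio of 0.798 (0.775 to 0.822). AXIN2, the feedback scaffold that serves as a readout of beta-catenin activity in many tissues, had 9 parental and 358 resistant reads. Its levels were 0.0630 and 2.60, its ratio was 41.3 (21.5 to 91.1) and its log2 ratio of 1.76 was the highest among the 31 genes. It still made up 6.0% of the length-corrected AXIN reads in the resistant library, from 0.123% in the parental library.

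CTNNB1 itself was at 860 in the parental library and 633 in the resistant one, a ratio of 0.737 (0.730 to 0.743). These RNA levels do not measure the stability or location of the protein, on which the pathway acts.

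TCF7L2 was the main factor of its family and was lower in the resistant library. It was at 199 and 87.7, 2.27 times lower (2.22 to 2.32), with a log2 ratio of -1.18. TCF7L1, a mostly repressive member, had 97 and 15 reads, 6.23 times lower (3.60 to 11.6), at levels under 1. TCF7 was at 3.84 and 6.34, a ratio of 1.65 (1.48 to 1.84). Its exons overlap over 2.09% of their length with those of SKP1 on the opposite strand, a far more abundant gene at 275 and 368. LEF1 had 0 reads in both libraries. TCF7L2 held 98.2% of the length-corrected reads of the family in the parental library and 95.2% in the resistant one. Of the non-coding transcripts WNT5A-AS1 had 1 and 13 reads, an interval of 2.03 to 574 for the ratio of 13.5, and TCF7L1-IT1 had 0 in both.

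Each gene was also set beside its neighbours on the chromosome. A neighbour median was taken over the log2 ratios of the 20 closest expressed genes to either side, by gene order in GENCODE release 29. AXIN2, ZNRF3, SFRP4, FZD9, WNT7A and RNF43 had neighbour medians between -0.18 and -0.04. With that median subtracted, AXIN2 was at 1.82, SFRP4 at 1.23, ZNRF3 at 1.18, FZD9 at 1.05 and WNT7A at -1.40. TCF7L2, with a neighbour median of -0.30, came to -0.87, FZD5 (-0.25) to -0.90 and FZD8 (-0.09) to -0.996, which put these 3 short of 2-fold. WNT2B, among neighbours with a median of -0.76, came to 1.09, and TCF7, among neighbours at 0.42, to 0.18. FZD1, which lies beyond ABCB1 on chromosome 7, had a neighbour median of 0.15 and came to 0.70.

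**Figure D4:**
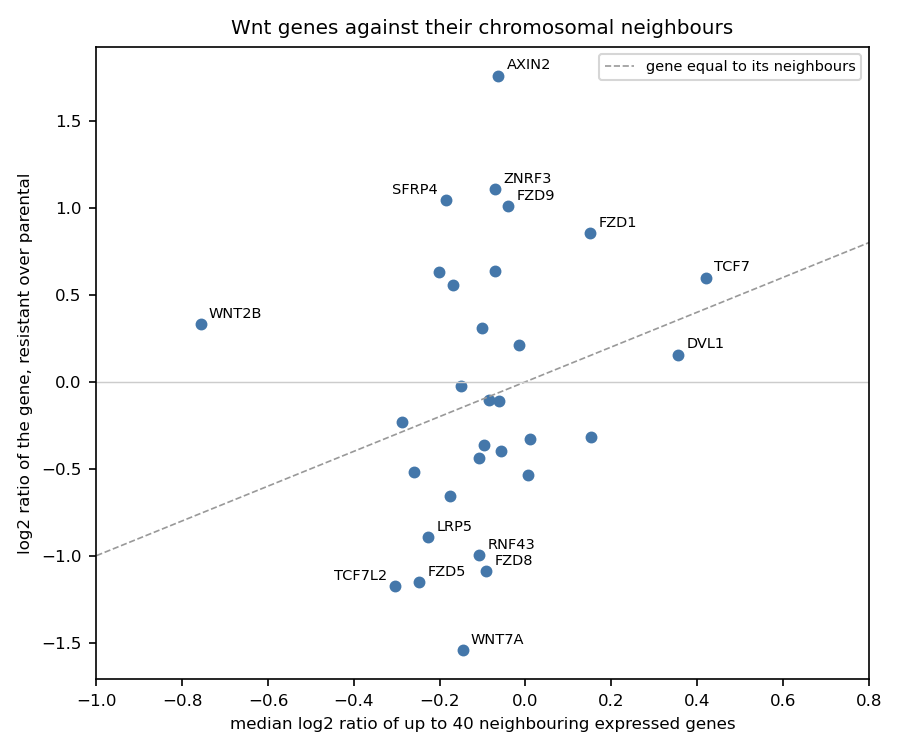
Log2 ratio of each of the 31 expressed Wnt genes (vertical axis) against the median log2 ratio of up to 40 neighbouring expressed genes (horizontal axis), with 1 point per gene. On the dashed line a gene equals its neighbours. AXIN2, SFRP4, ZNRF3, FZD9 and WNT7A lie far from the line, and WNT2B stands apart at the left with a neighbour median of -0.76.

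In the list of Wnt lipidation and release, which also takes in glypicans, PORCN and GPC4 differed by more than 2-fold. PORCN, the acyltransferase that adds the lipid needed for secretion, was at 58.5 in the parental library and 19.3 in the resistant one (log2 ratio -1.55). WLS, the carrier that takes the lipidated ligand to the surface, was at 185 and 207. The glypican GPC4, a heparan sulfate proteoglycan of the cell surface, was at 2.76 and 82.3 (4.47), and GPC6 at 19.0 and 18.5. Of the 4 expressed genes of this list 1 was higher and 1 lower by 2-fold or more, beside 10.6% and 9.68% of all expressed genes. RSPO1 was the only expressed R-spondin of 4, at 131 and 132.

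Of 4 expressed further antagonists, TPBG, a membrane glycoprotein that inhibits LRP6 signalling, was at 178 and 36.9 (-2.24) and KREMEN2, a co-receptor of DKK proteins, at 6.20 and 2.43 (-1.07). SHISA2, which holds Frizzled in the endoplasmic reticulum, was at 0.273 and 4.38 (2.08), and KREMEN1 was at 12.4 and 17.5 (0.47). The list so held 1 gene past 2-fold upward and 2 downward, beside 10.6% and 9.68% of all expressed genes. With 4 genes these counts do not set the list apart. Of 2 expressed intracellular feedback inhibitors CXXC5 was at 14.4 and 31.4 (1.07) and NKD2 at 3.48 and 4.67 (0.34).

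In the rest of the destruction complex none of 14 expressed genes, which include APC and the GSK3 and casein kinase 1 genes, was 2-fold apart, beside 10.6% of all expressed genes higher and 9.68% lower. Their log2 ratios ran from -0.71 to 0.60, with a median of -0.11, and with so few genes the count alone does not set this list apart. TNKS2, a tankyrase that marks AXIN for degradation, was at 52.9 and 31.9 (-0.71), CTNNBIP1, an inhibitor of beta-catenin binding to TCF, at 42.5 and 26.7 (-0.65), FBXW11 at 96.4 and 146 (0.60) and APC at 18.1 and 23.4 (0.36). Of 15 expressed nuclear partners 0 were 2-fold apart, beside the same shares of all expressed genes, and their median was -0.36. HIPK2 (0.82), TLE2 (-0.73), PYGO1 (0.67) and NLK (0.61) had the largest log2 ratios among them. Of 13 expressed genes of beta-catenin-independent signalling and planar polarity 1 passed 2-fold upward, PRICKLE1 at 24.2 and 51.8 (1.07), and 0 downward. VANGL2 was at 1.71 and 0.458 (-0.90), VANGL1 at 76.5 and 41.2 (-0.88) and the receptor ROR1 at 5.89 and 2.96 (-0.80). The median was -0.25, and the same shares of all expressed genes stand beside these counts.

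**Figure D5:**
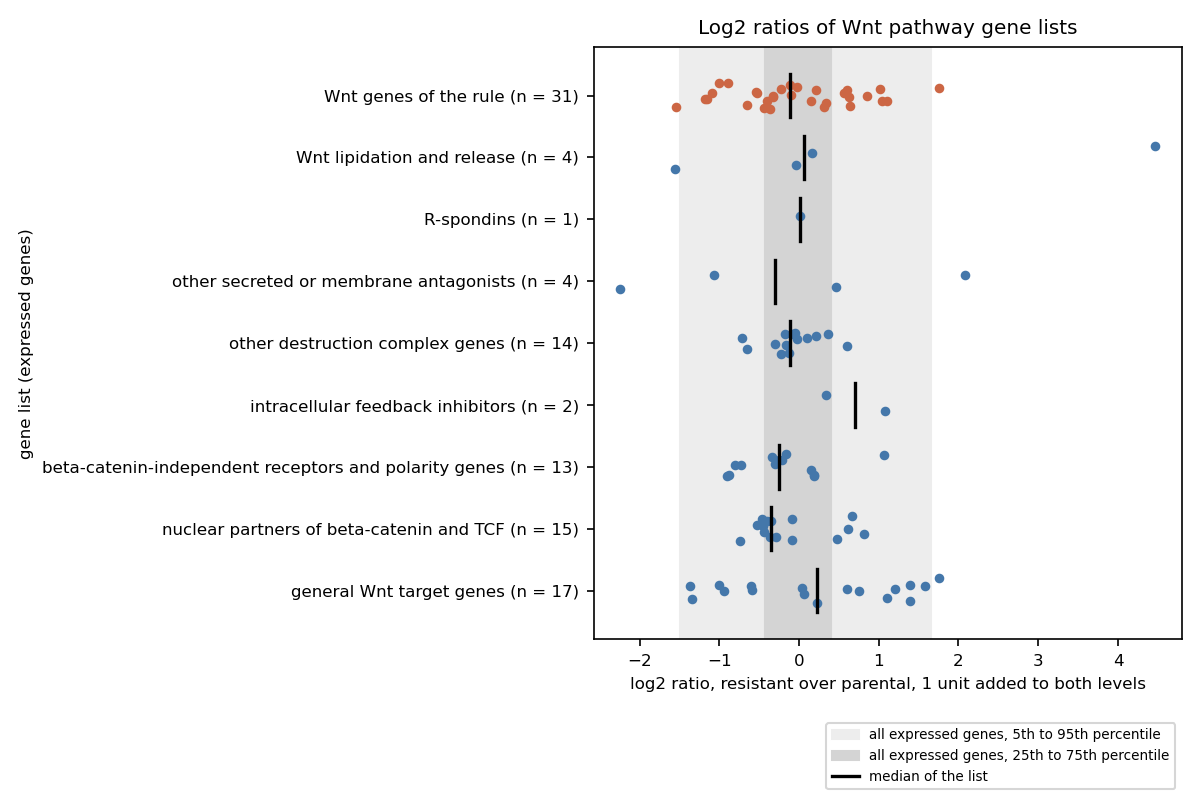
Log2 ratio, resistant over parental with 1 unit added to both levels (horizontal axis), of each expressed gene of the Wnt genes and of 8 lists of other pathway genes, with the median of each list as a bar. Shaded bands show all expressed genes. The destruction complex and nuclear partners lie within 1 of 0, while the lists of release, antagonists and targets hold the widest values, with GPC4 at 4.47.

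Of the 28 general Wnt target genes that were found, 17 were expressed. Past 2-fold, 6 of the 17 were higher, where 10.6% of all expressed genes were, and 2 were lower, where 9.68% were. AXIN2 and TNFRSF19 among the 6, and EPHB3 among the 2, counted as expressed only through the library where they were higher. The same filter held for all genes, and whether the shares differ was not tested. The other 9 were not called and ran from -0.998 (RNF43) to 0.76 (BAMBI), and the median of the 17 was 0.22. AXIN2, ZNRF3, TCF7 and RNF43, described above, are among the 17. MYC was at 532 (parental) and 1593 (resistant), a log2 ratio of 1.58. CYR61, also a target of YAP, was at 409 and 1075 (1.39) and TNFRSF19 at 0.434 and 2.75 (1.39). EPHB3 was lower, at 1.64 and 0.0291 (-1.36), the latter from 4 reads. The remaining called genes were ETS2, at 49.2 and 115 (1.20), and PPARD, at 94.8 and 36.8 (-1.34), named after their values were seen, as are the further targets below. CCND1 was at 298 and 349 (0.22) and CD44 at 2627 and 2749 (0.07). With the neighbour median subtracted, CYR61 (neighbours at 0.48) came to 0.91 and ETS2 (0.39) to 0.81, both short of 2-fold. The other called targets stayed past 2-fold, and BIRC5, at -0.59 among neighbours at 0.44, came to -1.03. Many of these genes answer to other pathways too.

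The other 11 targets were under a level of 1. NKD1, an inhibitor of Dishevelled induced by Wnt, had 9 parental and 51 resistant reads, SP8 8 and 57, SP5 7 and 25, NOTUM, an enzyme that strips the Wnt lipid, 2 and 8, and PROX1 0 and 12. ASCL2, a factor of intestinal stem cells, had 17 and 0 reads. TDGF1 had 3 and 1, LGR5 0 and 1, and LEF1, APCDD1 and CDX1 0 in both. KIAA1199, expressed in the parental library, had 300 and 84 reads, levels of 2.10 and 0.61 and a ratio of 0.291 (0.225 to 0.371). Targets of low level so went both ways. AXIN2, NKD1, SP8, SP5, PROX1 and TNFRSF19 had more reads in the resistant library, with intervals wholly above 1, and RNF43, ASCL2, EPHB3 and KIAA1199 had fewer, with intervals wholly below 1. The interval of NOTUM, 0.829 to 40.1, holds a ratio of 1.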

How the data were processed

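Polyadenylated RNA of 2 libraries was analysed, 1 per group. The deposited table holds 1 log2 value per gene and library, and its name calls the values RPKM, made by the authors. Per the submitters' processing notes TopHat was used; neither its version nor a build, counter or strand setting is given in the sources used here. Back-transformed, they came in whole steps of 0.00700 (parental) and 0.00727 (resistant), within 0.1 read for 100% of the genes with 1 to 100000 reads. The values are therefore reads times 1 factor per library, not divided by length, and the lowest value was taken as 0 reads. The log2 ratio used a pseudocount of 1, and genes at 1 or more in either library were called expressed. With no replicates no test was run; 95% intervals are exact and cover counting error only, since reads that carry no molecular identifier need not be separate molecules. Lengths are merged exons of all GENCODE release 29 transcripts, which lowers values of genes with long rare exons, and may not be the authors' annotation. All 56 genes matched by Ensembl identifier. Promoter sequences are from RefSeq (GRCh38.p14), matched by symbol for 39 genes. Expressed members were all named; of each other list, the up to 4 expressed genes with the largest absolute log2 ratio. The members and lists were chosen with earlier results of these data known. The fold and interval code was tested on simulated data. Python 3.11.15, pandas 2.3.3 and scipy 1.17.1 were used. The closing part gives the effect of other pseudocounts, minimum levels, scalings and thresholds.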

Additional observations from a re-analysis of the deposited data

How the results depend on the processing

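The 8 Wnt calls rest on low levels for the most part. A pseudocount of 5 left 1 gene higher (ZNRF3) and 1 lower (TCF7L2), with 901 and 865 of all genes called. A minimum level of 5 left 1 higher and 2 lower of 21 Wnt genes, beside 9.94% and 9.30% of all genes at that level. The median was then -0.23, and without a minimum, over all 56 genes, it was 0. Subtracting the neighbour median left 1 lower gene, WNT7A, beside 8.99% of all genes with a position. It gave 5 higher, with WNT2B as a new call, beside 9.30%. A 1.5-fold threshold gave 8 higher and 7 lower Wnt genes, and 2585 and 2581 of all genes. Plain ratios over genes with at least 30 reads, a setting chosen after seeing the data, gave 9 lower Wnt genes, a median of -0.33 and 2042 lower genes in all. All 8 calls were kept with scaling by total or by median ratio, where the resistant levels were divided by 0.983 and 0.968. A pseudocount of 0.1 also kept them, but it can only widen a ratio. No called gene changed direction, though only the scalings and the neighbour subtraction could have changed one. No paired analysis was possible because each group holds 1 library, and none could be left out. Below about 30 reads the counting interval of a ratio spans several-fold, and the spread between cultures is unknown.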
